A study of Danio rerio with 8 samples.

Results

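In zebrafish (Danio rerio) liver profiled on 2-colour arrays, 31 of 43603 probes (0.0711%) were at least 2-fold lower in 5 µM cadmium than in 0 µM cadmium on each of the 3 arrays that set those doses against each other at day 28. This set was chosen by those values, which are therefore a description and carry no test. Of the 31 probes, 23 have a gene symbol in the platform annotation, for 22 genes, and 8 have none. The values used here are ratios and hold no level, so they say where RNA was lower, not how abundant it was, and the labelled tissue cannot be checked by the presence of hepatocyte markers.

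The study hybridised total liver RNA of 7 samples on 8 arrays in a loop, so that every array compares a red (Cy5) RNA with a green (Cy3) one. The samples were 5 µM cadmium at day 28 (2 samples), 1 µM at day 28 (2 samples), 0 µM at day 28 (2 samples, here control 1 and control 2 after their replicate numbers) and 0 µM at day 4 (1 sample). Samples of one dose are labelled biological replicates. The sources used here do not give the number, sex, strain or age of the fish behind each RNA, whether fish were pooled, or the route of exposure. Fewer cells of a type and less RNA per cell cannot be told apart in such samples.

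All values below are log2 ratios of the higher over the lower cadmium sample, so -1 is 2-fold lower. The deposited ratios were read as log2 of red over green. Neither base nor direction is stated, and every sign would turn if they were green over red.

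Cadmium is a non-essential metal that accumulates in liver, where metallothioneins and glutathione bind it, and it displaces zinc and calcium from proteins. Zona pellucida proteins build the egg envelope of fish and in zebrafish are made mainly by the oocyte, while the liver of females makes the yolk precursor vitellogenin under estrogen. The circadian clock of zebrafish runs in most tissues and responds directly to light, with period proteins repressing their own transcription. Zebrafish liver lies against pancreatic tissue, whose acinar cells secrete trypsin and other digestive enzymes.

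On the arrays of the choice the members had a median of -1.55 in 5 µM replicate 1 over control 1 (range -3.51 to -1.01). They had a median of -1.33 in 5 µM replicate 2 over control 2 (range -3.35 to -1.01) and of -2.61 in 5 µM replicate 1 over control 2 (range -4.49 to -1.0). The last of these was the lowest of the medians, and 5 µM replicate 1 and control 2 each entered the choice through 2 arrays. Just inside the threshold were ucp1, with -1.62, -1.24 and -1.0 in that order of arrays, and per1b, with -1.01, -1.84 and -1.54. Just outside were prss59.1, a pancreatic trypsin-like protease, with -0.99, -1.75 and -1.08, and fbl, which encodes the nucleolar protein fibrillarin, with -0.98, -1.35 and -1.02.

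**Figure D1:**
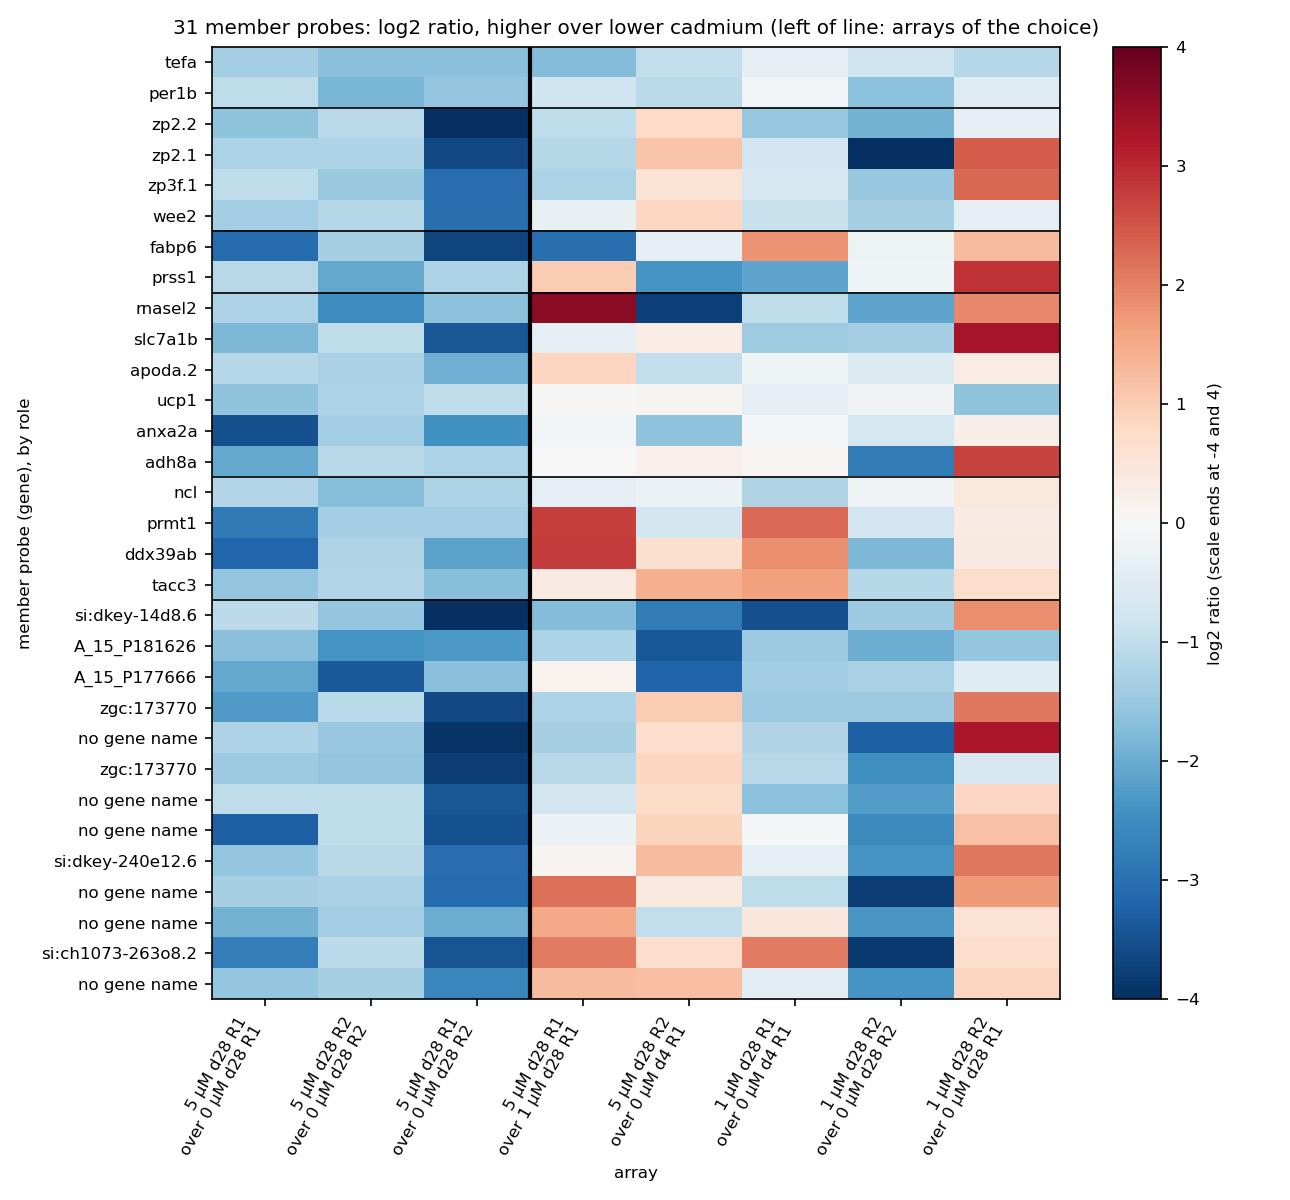
Log2 ratio of the higher over the lower cadmium sample for the 31 members (down the page) on all 8 arrays (across), with the 3 arrays of the choice set apart from the 5 others. Rows carry the gene symbol. Those without one read "no gene name", except A_15_P181626 and A_15_P177666, which carry the probe ID. All members are below -1 on the arrays of the choice by the rule, while on the others the signs differ, except on 1 µM replicate 2 over control 2, where all 31 are below 0.

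The 5 arrays that took no part in the choice can show whether the same probes were lower elsewhere. They set 5 µM replicate 1 over 1 µM replicate 1 (the 5 over 1 µM array), 5 µM replicate 2 over the day 4 sample (the 5 µM over day 4 array), 1 µM replicate 1 over the day 4 sample (the 1 µM over day 4 array), 1 µM replicate 2 over control 2 and 1 µM replicate 2 over control 1. The arrays with the day 4 sample set day 28 against day 4 as well as cadmium against 0 µM, with 1 day 4 RNA. Dose and time cannot be told apart on them. Of the 5 arrays, the 1 µM over day 4 array alone holds no RNA used in the choice. Each of the others shares a 5 µM or a 0 µM RNA with it, so a low 5 µM or a high control level that chose a probe is carried into it.

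On the 5 over 1 µM array 17 of the 31 members were below 0, with a median of -0.25 (range -3.03 to 3.60), beside 50.3% of all probes below 0. At least 2-fold lower were 10 members, where 0.461% of all probes were, and at least 2-fold higher were 8 members, where 1.82% of all were. The members thus lay far out in both directions, with no common one.

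On the 1 µM over day 4 array 24 members were below 0 and the median was -0.68 (range -3.52 to 2.26), beside 49.5% of all probes below 0. There 13 members were at least 2-fold lower (0.61% of all probes) and 5 at least 2-fold higher (0.913% of all). Lower values outnumbered higher ones on this array, which shares no RNA with the choice but differs in day as well as dose.

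On the 5 µM over day 4 array 13 members were below 0, with a median of 0.29 (range -3.72 to 1.43), beside 51.1% of all probes below 0. There 7 members were at least 2-fold lower (0.608% of all probes) and 5 at least 2-fold higher (0.766% of all). More members were higher than lower in this 5 µM sample than in the day 4 sample, although it is one of the samples in which they were lower than in control 2.

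On 1 µM replicate 2 over control 2 all 31 members were below 0, with a median of -1.64 (range -4.24 to -0.14), beside 49.7% of all probes below 0. At least 2-fold lower were 23 members (1.9% of all probes) and at least 2-fold higher were 0 members (0.835% of all). On 1 µM replicate 2 over control 1, the same 1 µM RNA gave 8 members below 0 and a median of 0.70 (range -1.60 to 3.29), beside 51.0% of all probes below 0. There 3 members were at least 2-fold lower (0.333% of all probes) and 13 at least 2-fold higher (1.37% of all). The direction at 1 µM thus differed between the 2 arrays.

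**Figure D2:**
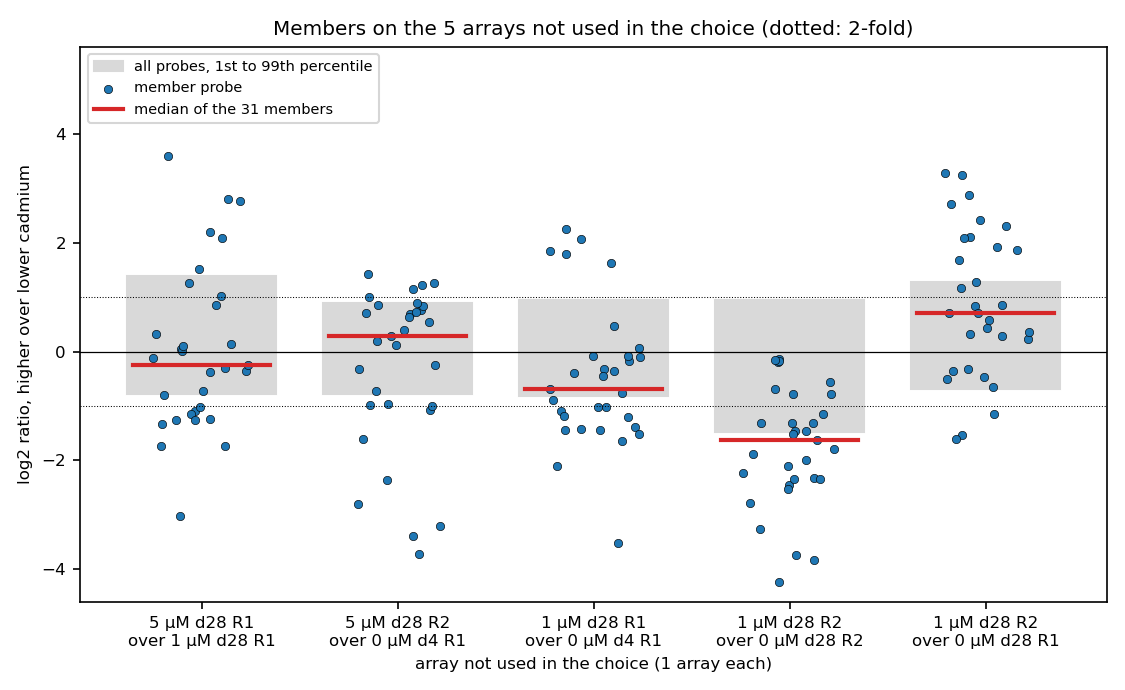
Log2 ratio of the higher over the lower cadmium sample (y) of each of the 31 members on each of the 5 arrays outside the choice (x). The median of the members is drawn on each, and grey boxes show the central range of all probes. On the 5 arrays outside the choice the medians run from -1.64 (1 µM replicate 2 over control 2) to 0.70 (1 µM replicate 2 over control 1).

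The arrays of 1 µM replicate 2 carry this RNA in green beside control 2 and in red beside control 1. For 23 of 31 members red was the brighter dye on both, where 26.1% of all probes showed that, and 8 members were lower in the 1 µM RNA on both, where 23.6% of all were. No member was higher in the 1 µM RNA on both arrays or brighter in green on both. A red excess on both arrays and a level in the 1 µM RNA between those of control 2 and control 1 give the same signs. On these 2 arrays alone they cannot be told apart. On 2 arrays of the choice, each control is in red beside 5 µM replicate 1 in green. There most members were lower over control 2 (median -2.61) than over control 1 (median -1.55), but the order of the controls differed between members. adh8a was at -2.06 over control 1 and -1.26 over control 2, and zp2.1 at -1.26 and -3.62. Which reading holds for a member was not tested. The dye term of the fit over the 5 arrays was positive (red brighter) for 23 of 31 members, with a median of 0.50, beside 49.6% of all probes. That term includes the 2 arrays just described, so it is no separate reading. On the others the members' medians of red over green were -0.25 (5 over 1 µM), -0.68 (1 µM over day 4) and -0.29 (5 µM over day 4).

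The other pairs of arrays did not repeat the excess of members brighter in red on both. For 1 µM replicate 1, red beside the day 4 sample and green beside 5 µM replicate 1, 16 members were brighter in green on both arrays (27.3% of all probes) and 6 in red on both (27.4% of all). In that RNA 8 members were lower on both arrays (22.2% of all) and 1 was higher on both (23.1% of all). For the day 4 sample, 14 members were brighter in green on both arrays (24.2% of all), 3 in red on both (25.9% of all), 10 were higher in the day 4 RNA on both (25.3% of all) and 4 lower on both (24.6% of all). On these pairs more members were brighter in green than in red on both arrays, the opposite of the pair of 1 µM replicate 2. Both pairs include the 1 µM over day 4 array, so they are not separate readings. Here too, a green excess and a level of the RNA between those of its partners give the same signs. They cannot be told apart on these arrays.

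With both arrays of 1 µM replicate 2 averaged, 24 of 31 members were below 0 for 1 over 0 µM, with a median of -0.68, beside 50.1% of all probes below 0. Without control 1 all 31 were below 0 with a median of -1.64, and without control 2 there were 8 with a median of 0.70, so this value turns on which of the 2 arrays is used. Leaving out a control also leaves out 1 dye orientation, so this step does not tell the control, the dye and the array apart. Across all probes, the ratios of 1 µM replicate 2 over control 1 correlated at -0.11 with those that the other arrays of the loop give for the same pair. This was the lowest of the 8 arrays, followed by 0.061 for 5 µM replicate 2 over control 2, an array of the choice, and the others reached up to 0.68. What set these low correlations was not tested.

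**Figure D3:**
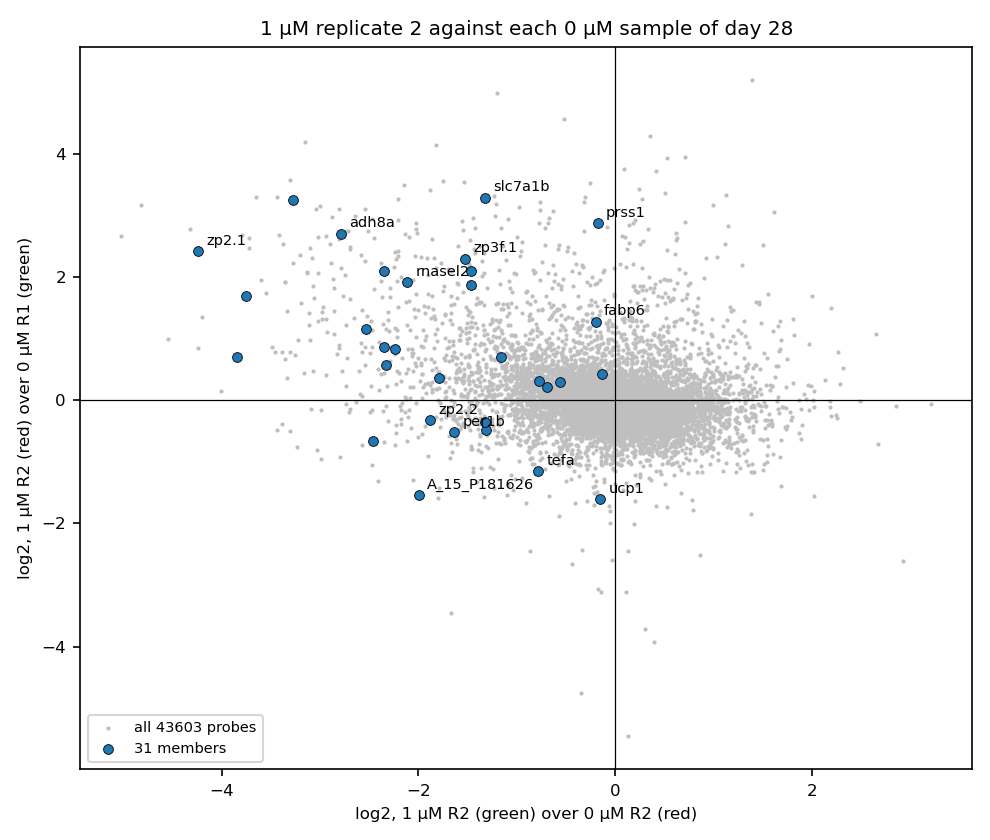
Log2 ratio of 1 µM replicate 2 over control 2 (x, 1 µM RNA in green) against that over control 1 (y, 1 µM RNA in red) for all 43603 probes (grey) and the 31 members (blue). The members all lie left of 0, 23 of them above 0 on y and 8 below.

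The probe chosen as lowest for 1 over 0 µM was A_15_P181626, which has no gene symbol, with -2.0 over control 2 and -1.53 over control 1. Next was si:ch1073-263o8.2, with -3.84 over control 2 and 0.70 over control 1. The highest were prss1, with -0.18 over control 2 and 2.88 over control 1, and slc7a1b, with -1.32 over control 2 and 3.29 over control 1. Of these 4, only A_15_P181626 had the same sign over both controls.

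Against the day 4 sample the 2 samples of 5 µM differed from each other. For 5 µM replicate 2, measured directly, 13 members were lower. For 5 µM replicate 1, which reached the day 4 sample through 1 µM replicate 1 over 2 arrays, 21 members were lower and the median was -1.10 (range -5.26 to 5.03), beside 49.7% of all probes lower and a median of 0.0012. Both 5 µM samples were lower than the day 4 sample for 9 of 31 members (29.0%), where 25.3% of all probes were, and both were higher for 6, where 24.5% of all were. The share lower in both is near that of all probes.

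Across the 5 arrays outside the choice, 3 members were below 0 on all 5, where 3.45% of all probes were, 7 were below 0 on 4 (16.7% of all probes), 12 on 3 (30.5% of all), 5 on 2 (30.1% of all) and 4 on 1 (15.9% of all). Those on all 5 were tefa, per1b and A_15_P181626. They were picked out after their values were seen.

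limma, fitted to the 5 arrays with 1 coefficient per condition and a dye term, called 0 of 43603 probes (0% of probes) at an adjusted p under 0.05 for 1 over 0 µM, 5 over 1 µM, 5 µM over day 4 and 1 µM over day 4. At an unadjusted p under 0.05 it gave 1137 probes for 1 over 0 µM, of which 7 were members, and 1929 for 5 over 1 µM, of which 7 were members. It gave 2014 for 5 µM over day 4, of which 9 were members, and 1602 for 1 µM over day 4, of which 8 were members. These counts take in both directions, higher as well as lower. The 5 arrays also hold 5 µM and 0 µM RNAs that chose the members, so the member counts are a description. The smallest adjusted p of limma over all probes was 0.693, for 5 µM over day 4. The fit has 1 residual degree of freedom and called none of the changes planted for 5 over 1 µM in simulated data, so a count of 0 does not show that nothing differed.

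In that fit 12 members were below 0 for 5 over 1 µM (51.4% of all probes) with a median of 0.15. There were 19 for 5 µM over day 4 (50.5% of all) with a median of -0.29, and 20 for 1 µM over day 4 (49.5% of all) with a median of -0.22. The medians of the first 2 comparisons turned sign without 1 RNA. For 5 over 1 µM, 17 members were below 0 with a median of -0.25 without 5 µM replicate 2 or without the day 4 sample. For 5 µM over day 4, 13 were below 0 with a median of 0.29 without 5 µM replicate 1 or without 1 µM replicate 1, and 21 with a median of -1.10 without 5 µM replicate 2. Medians over all probes were within 0.0031 of 0. For 5 over 0 µM the 5 arrays, which reach 0 µM only through other samples, gave 19 members below 0 (50.4% of all) and a median of -0.34. The direct arrays had medians of -1.55, -1.33 and -2.61, which the rule held below 0. The 5 arrays hold the same 5 µM and 0 µM RNAs as the direct ones, so they are no separate check.

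Both members of the circadian clock were below 0 on all 5 arrays outside the choice. Of these, only the 1 µM over day 4 array shares no RNA with the choice. tefa encodes a PAR bZIP transcription factor that binds D-box elements in clock-controlled genes. Its ratio was -1.73 on the 5 over 1 µM array, -0.98 on the 5 µM over day 4 array, -0.32 on the 1 µM over day 4 array, -0.78 over control 2 and -1.16 over control 1 for 1 µM replicate 2. per1b encodes a period protein, a repressor within the clock loop. Its ratio was -0.80, -1.08 and -0.11 on the same first 3 arrays, -1.64 over control 2 and -0.51 over control 1. For 1 over 0 µM limma gave tefa -0.97 (SE 0.10) and per1b -1.07 (SE 0.25), both at an adjusted p of 1.00. Each estimate is the mean over the 2 arrays of 1 µM replicate 2. The dye term takes up part of the difference between those arrays, so the SE does not measure the spread between samples. The smallest differences of both genes were those on the 1 µM over day 4 array, and no source used here gives the time of day of sampling.

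Over a wider list of clock genes the medians were near 0. That list holds 34 genes on 58 probes, was put together after the members were seen and includes tefa and per1b. It had medians of 0.02 (5 over 1 µM), 0.01 (5 µM over day 4), -0.03 (1 µM over day 4), -0.08 (1 µM replicate 2 over control 2) and -0.01 (over control 1). Of its 58 probes 27, 26, 34, 37 and 30 were below 0 in that order. Single probes spread wider than these medians. The 56 that are no members ran from -1.48 to 2.07 on the 5 over 1 µM array. There 1 was at least 2-fold lower and 2 at least 2-fold higher (0.461% and 1.82% of all probes). In 1 µM replicate 2 over control 2 they ran from -1.18 to 1.54, with 1 and 2 (1.9% and 0.835% of all). limma called 0 of them.

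The egg envelope and oocyte members, zp2.1, zp2.2, zp3f.1 and wee2, had a common sign on 4 of the 5 arrays. The first 3 encode zona pellucida proteins, and wee2 a kinase that holds oocytes in meiotic arrest in mammals. All 4 were below 0 on the 5 over 1 µM array (median -1.08, range -1.27 to -0.31), on the 1 µM over day 4 array (median -0.83, range -1.51 to -0.68) and on 1 µM replicate 2 over control 2 (median -1.70, range -4.24 to -1.32). All 4 were above 0 on the 5 µM over day 4 array (median 0.79, range 0.54 to 1.15). Over control 1 they split, with zp2.1 at 2.42 and zp3f.1 at 2.30 above 0, and zp2.2 at -0.32 and wee2 at -0.35 below it. The day 4 sample was thus higher than 1 µM replicate 1 and lower than 5 µM replicate 2 for all 4.

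Lists of related genes had the same signs on most arrays. Ovary markers (5 genes, 7 probes, among them the member zp2.1) had a median of -3.22 and 7 of 7 probes below 0 on 1 µM replicate 2 over control 2. On the 5 µM over day 4 array their median was 0.76 with 0 of 7 below 0, on the 1 µM over day 4 array -0.77 with 6 of 7, on the 5 over 1 µM array -0.31 with 5 of 7, and over control 1 0.98 with 0 of 7. On the arrays of the choice the rule fixed zp2.1, so only the 6 ovary probes that are no members are given. Their median was -0.75 in 5 µM replicate 1 over control 1, with 6 of 6 below 0 (50.1% of all probes). It was -0.30 in 5 µM replicate 2 over control 2, with 5 of 6 (49.3% of all). In 5 µM replicate 1 over control 2 it was -2.64, with 6 of 6 (51.6% of all). These 3 arrays share RNA samples, so their values are a description. Since only ratios exist, ovary markers cannot be placed at a level in any sample, and their part in the members' values was not tested.

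Among the ovary markers that are no members is zar1, an oocyte factor. Its probes were at -3.22 and -1.45 on 1 µM replicate 2 over control 2 and at 0.98 and 1.35 over control 1. bmp15 and gdf9, growth factors secreted by the oocyte, were at -0.93 and -0.81 over control 2 and at 0.12 and 0.29 over control 1. The whole zona pellucida family, 18 genes on 30 probes of which 3 are members, a list made after values were seen, had a median of -1.87 over control 2 with 30 of 30 below 0 and 25 at least 2-fold lower. Its median was -0.43 on the 5 over 1 µM array (21 of 30 below 0), 0.55 on the 5 µM over day 4 array (1 of 30), -0.72 on the 1 µM over day 4 array (25 of 30) and 0.20 over control 1 (9 of 30). The 3 members thus had the signs of most of their family on the first 4 of these arrays.

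Vitellogenins and the estrogen receptor, the estrogen response of the liver, showed another order. Their 7 probes of 5 genes had medians of 2.00 on the 5 over 1 µM array (0 of 7 below 0), -0.23 on the 5 µM over day 4 array (5 of 7), 0.66 on the 1 µM over day 4 array (3 of 7), 0.53 on 1 µM replicate 2 over control 2 (3 of 7) and 1.67 over control 1 (0 of 7). None of these genes is a member.

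**Figure D4:**
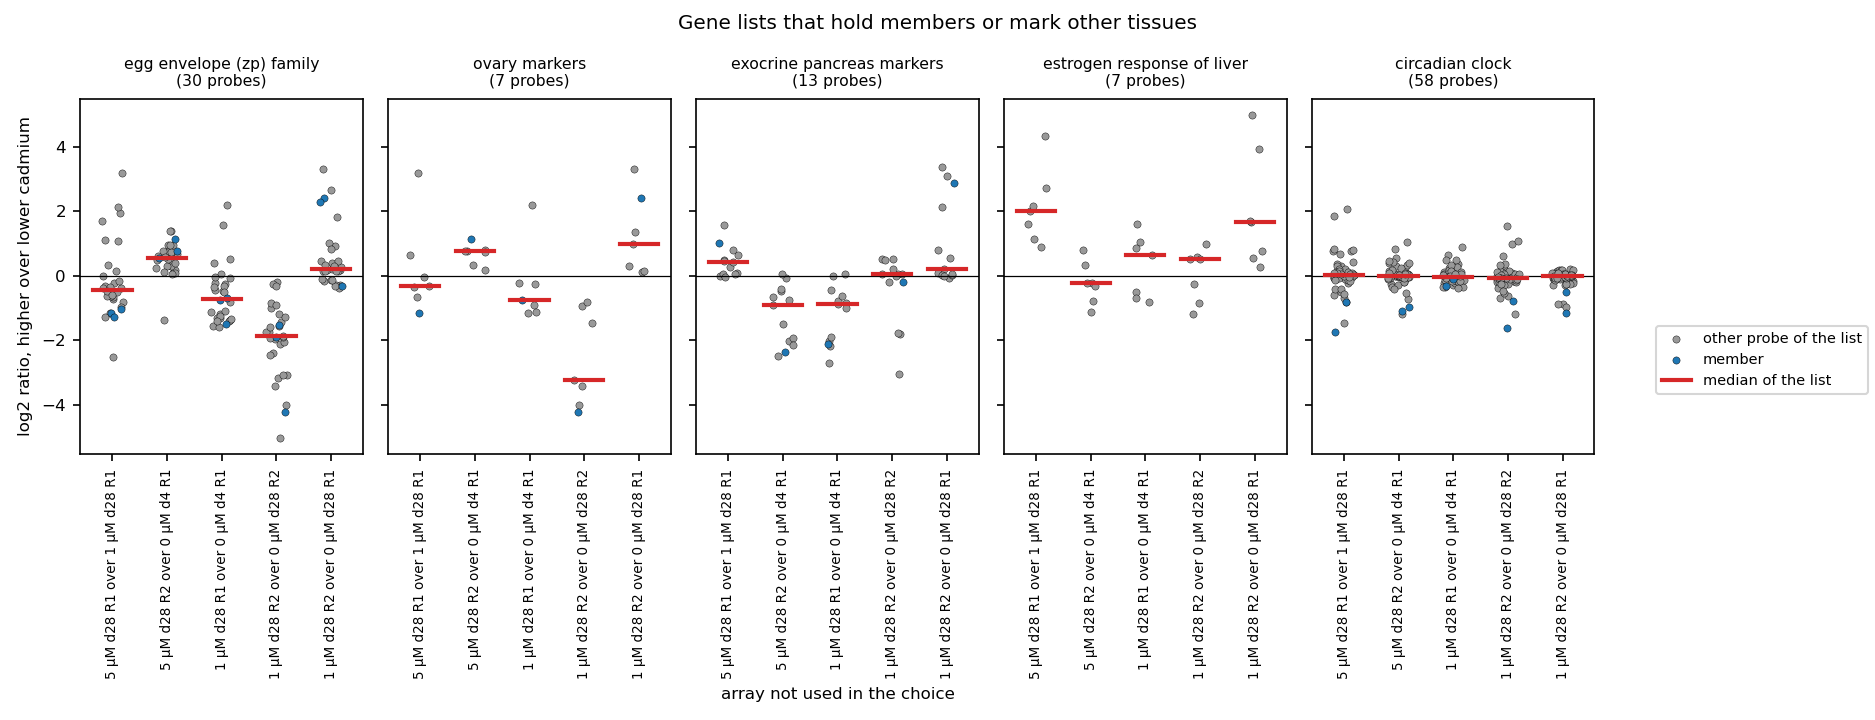
Log2 ratio of the higher over the lower cadmium sample (y) on the 5 arrays outside the choice (x) for the probes of 5 gene lists, members in blue and the list median in red. The zona pellucida family has a median of -1.87 on 1 µM replicate 2 over control 2 and the ovary markers one of -3.22, while the clock list stays within 0.08 of 0 in its medians.

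The digestion and bile acid members, prss1 and fabp6, had opposite signs on 2 of the 5 arrays. prss1, a pancreatic trypsinogen, was at 1.02 on the 5 over 1 µM array, -2.36 on the 5 µM over day 4 array and -2.11 on the 1 µM over day 4 array. It was at -0.18 in 1 µM replicate 2 over control 2 and at 2.88 over control 1. Both exposed samples were thus lower than the day 4 sample, while 1 µM was higher than control 1. Exocrine pancreas markers (9 genes found of 10, 13 probes, including prss1) had medians of -0.90 on the 5 µM over day 4 array (12 of 13 below 0), -0.87 on the 1 µM over day 4 array (12 of 13), 0.42 on the 5 over 1 µM array (1 of 13), 0.05 over control 2 (6 of 13) and 0.20 over control 1 (2 of 13). The part of pancreatic RNA in the prss1 values was not tested.

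fabp6, an ileal bile acid binding protein, was at -3.03 on the 5 over 1 µM array, the lowest of the 31 members there. It was at -0.32 on the 5 µM over day 4 array, 1.80 on the 1 µM over day 4 array, -0.20 over control 2 and 1.28 over control 1. The 1 µM sample was thus the higher one on 2 of 3 arrays without 5 µM.

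Of the 6 members of metabolism, transport and secretion, slc7a1b (a cationic amino acid transporter) had -0.37 on the 5 over 1 µM array, 0.29 on the 5 µM over day 4 array, -1.42 on the 1 µM over day 4 array, -1.32 over control 2 and 3.29 over control 1. adh8a (an alcohol dehydrogenase) had 0.01, 0.19 and 0.07 on the same first 3 arrays, -2.78 over control 2 and 2.71 over control 1. The 2 genes spread by over 4 log2 units between the arrays of the 2 controls while their other values were small or mixed. rnasel2 (a secreted ribonuclease-like protein) had 3.60, -3.72 and -1.03 on the first 3 arrays, -2.11 over control 2 and 1.92 over control 1, the highest and the lowest value of all members on the first 2. Other rnasel2 probes were at 0.86 and -1.45 on the 5 over 1 µM array, so the 3.60 was not repeated. On the 5 µM over day 4 array they were at -4.79 and -2.31.

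The member probe of ucp1 (a mitochondrial uncoupling protein) was within 0.40 of 0 on 4 arrays and at -1.60 over control 1. Another ucp1 probe was lower on more of them. It was at -0.20 on the 5 over 1 µM array, -1.43 on the 5 µM over day 4 array and -1.12 on the 1 µM over day 4 array. It was at -1.02 over control 2 and -1.28 over control 1. anxa2a (a calcium-dependent phospholipid binding annexin) was at -0.12, -1.60, -0.09, -0.69 and 0.22 in the order 5 over 1 µM, 5 µM over day 4, 1 µM over day 4, control 2, control 1. apoda.2 (an apolipoprotein D of the lipocalin family) was at 0.86, -0.99, -0.18, -0.56 and 0.29 in that order. On 1 µM replicate 2 over control 2 all 6 of these genes were below 0, with a median of -1.01.

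The 4 members of RNA processing and cell division were ncl (nucleolin, for ribosome synthesis), prmt1 (an arginine methyltransferase), ddx39ab (an RNA helicase of mRNA export) and tacc3 (a spindle protein). ddx39ab was at 2.80 on the 5 over 1 µM array, 0.64 on the 5 µM over day 4 array, 1.85 on the 1 µM over day 4 array, -1.79 over control 2 and 0.37 over control 1. prmt1 was at 2.78, -0.73, 2.26, -0.77 and 0.32 in that order. By the member probes both were thus higher in 1 µM replicate 1 than in the day 4 sample and higher still in 5 µM replicate 1. Yet 5 µM replicate 1 was lower than both controls (ddx39ab -3.16 and -2.13, prmt1 -2.83 and -1.36). Other probes of these genes did not repeat this order. On the 5 over 1 µM array they were at -0.08 (ddx39ab) and at 0.41 and -0.33 (prmt1). On the 1 µM over day 4 array they were at -0.52 (ddx39ab) and at -0.56 and -0.54 (prmt1).

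tacc3 was at 0.32, 1.43, 1.63, -1.15 and 0.70 in the same order. ncl was at -0.36, -0.24, -1.19, -0.14 and 0.43. As a group the 4 genes were all above 0 over control 1 (range 0.32 to 0.70) and all below 0 over control 2 (range -1.79 to -0.14).

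The other 13 members have no role given here: 5 probes of 4 uncharacterised genes (si:dkey-14d8.6, si:dkey-240e12.6, si:ch1073-263o8.2 and zgc:173770, which has 2 probes) and 8 probes without a symbol. All 13 were at least 2-fold lower in 1 µM replicate 2 over control 2 (median -2.35), and 10 were above 0 over control 1 (median 0.86). On the 1 µM over day 4 array 11 were below 0 (median -1.10) and on the 5 µM over day 4 array 4 were (median 0.71). si:dkey-14d8.6 had the lowest value of all members on the 1 µM over day 4 array, -3.52, with -2.80 on the 5 µM over day 4 array. A_15_P177666 had -3.21 on the 5 µM over day 4 array and -1.39 on the 1 µM over day 4 array. The 2 probes of zgc:173770 were at -1.10 and -1.24 on the 5 over 1 µM array, and at -0.65 and 2.11 over control 1, so they had opposite signs there.

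Other probes of the same genes give a second reading of the RNA that the rule did not use. There are 18 such probes for 13 of the 22 genes. Of 90 signs compared on the 5 arrays, 57 (63.3%) were those of the member, 7 probes had its sign on at least 4 of the 5, and 8 were under 2-fold on all 5. On the arrays of the choice 12 of the 18 were below 0 on all 3, and those arrays share RNA samples. No share over all probes was worked out beside these counts. Whether they differ from it is not known, and they are a description only.

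A second fabp6 probe had the member's sign on 5 of 5 arrays, with -1.86 on the 5 over 1 µM array and 2.08 over control 1. A second zp2.2 probe had it on 4 of 5, with -1.55 on the 1 µM over day 4 array and -1.95 over control 2. One of 2 other tefa probes had it on 5 of 5, at -0.56 on the 5 over 1 µM array and -0.52 on the 5 µM over day 4 array, smaller than the member. The remaining tefa probe had it on 3 of 5, with 0.10 on the 5 over 1 µM array and 0.07 over control 1. These 3 genes thus had a second probe of the member's sign on most arrays. So did apoda.2, rnasel2 and wee2, whose other probes had it on 4 of 5.

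The second per1b probe was within 0.18 of 0 on all 5 arrays, the second tacc3 probe within 0.15 and the second wee2 probe within 0.37. The 3 other si:ch1073-263o8.2 probes were at -1.79, -1.52 and -1.43 on the 1 µM over day 4 array, where the member was at 2.07. Different probes of a gene can read different transcripts or other RNAs, and which probe reads the named gene was not tested.

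**Figure D5:**
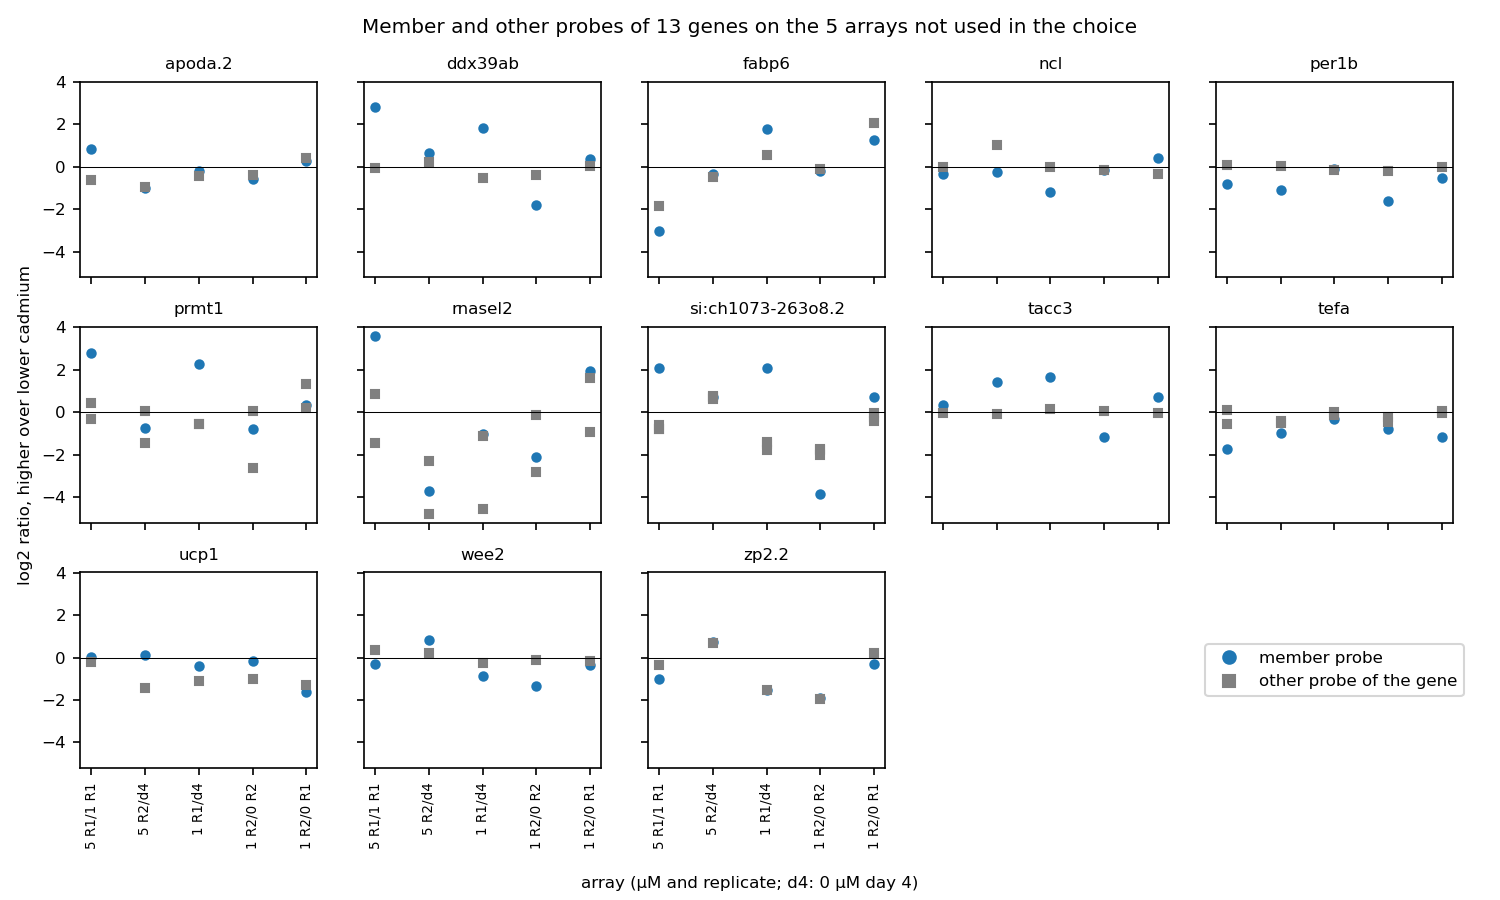
Log2 ratio of the higher over the lower cadmium sample (y) on the 5 arrays outside the choice (x, in µM and replicate, d4 for the day 4 sample) for the member probe (blue) and the other probes (grey) of 13 genes. The other fabp6 probe has the member's sign on all 5 arrays, with -1.86 where the member has -3.03 on the 5 over 1 µM array, while the second per1b, tacc3 and wee2 probes lie near 0.

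Lists without members gave these medians over the 5 arrays, from lowest to highest. Metal binding and transport (4 genes found of 8, 8 probes) lay between -0.29 and -0.03, glutathione and oxidative stress between -0.19 and 0.00, and heat shock and unfolded protein between -0.10 and 0.09. Cholesterol and lipid synthesis lay between -0.12 and 0.03, cytochrome P450 between 0.00 and 0.54, and acute phase and complement between -0.44 and 0.54. Hepatocyte markers lay between -0.69 and 0.16, red blood cell markers between -0.30 and 0.24, and muscle markers between -0.04 and 0.09. Single probes spread wider than these medians. Of 18 hepatocyte probes 7 were at least 2-fold lower and 2 at least 2-fold higher in 1 µM replicate 2 over control 2 (1.9% and 0.835% of all probes). Over control 1 these counts were 1 and 6 (0.333% and 1.37% of all). limma called 0 probes of any list in the 4 comparisons.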

How the data were processed

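The authors deposited 1 log ratio per probe and array, taken here as log2 of red over green from the size of the values and the order of the titles. limma was used to make them per the submitters' processing notes, which name no version. No source used here gives the background correction or normalization. All 43603 probes were kept, with 0 missing values and no intensities to filter on. Of these probes 23717 have 1 gene symbol in the platform annotation, 0 have several and 19886 have none here. Symbols were updated through Entrez IDs, of which 23534 probes' were in the RefSeq table (assembly GRCz12tu, names only), and 21 of the 23 members' were.

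Ratios were turned to higher over lower cadmium. Probe-wise models (lmFit and eBayes of limma 3.58.1, R 4.3.3, two-sided, Benjamini-Hochberg over all probes, threshold 0.05) used the 5 arrays outside the choice with a dye term, and the code was tested on simulated data. For 5 over 1 µM it returned the size of planted changes but called none of them at the threshold, so a count of 0 there is uninformative, and the other comparisons were not simulated. In these 5 arrays each condition is as often red as green, so the dye term leaves the differences as they are. The number of arrays limits the precision, and the arrays share RNA samples, so they are not independent. Same-numbered samples were not treated as pairs, since only 1 of 3 pairs of doses had replicate differences that correlated above 0: correlations of replicate differences were -0.056 (1 and 0 µM), 0.63 (5 and 0 µM) and -0.016 (5 and 1 µM).

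The members and lists were chosen with earlier results of these data known. Named are every member with 1 gene symbol, and the 2 lowest and 2 highest for 1 over 0 µM. Of 12 lists of the design, 2 hold a member and 10 hold none; the zona pellucida and clock lists and the role groups were added after values were seen. No sequences are shown. Alternatives tried were the dye term, all 8 arrays, scaling, centring, shared RNA (a variance ratio of 0.5), array weights, a replicate block, each RNA left out, the more variable probes, other fold thresholds, members without egg envelope genes and 1 probe per gene.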

Additional observations from a re-analysis of the deposited data

How the results depend on the processing

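The number of members was 171 at 1.5-fold, 0 at 4-fold, and 80 with arrays scaled to the same spread, of which 30 were among the 31. For 5 over 1 µM, members below 0 numbered 25 with all 8 arrays (median -0.46), which include the arrays of the choice, and 21 with the replicate block and no dye term (median -0.58), against 12 (median 0.15). With that block the medians were -1.29 for 1 over 0 µM (29 below 0), -1.46 for 5 µM over day 4 and -0.95 for 1 µM over day 4; limma called 0 probes with the block too. With arrays scaled to the same spread the medians were -0.35 for 1 over 0 µM (20 below 0), -0.07 for 5 µM over day 4 (18 below 0) and -0.11 for 1 µM over day 4 (19 below 0). The samples share only a replicate number, and the cause of these shifts was not tested. Leaving out 1 RNA at a time, with no dye term, gave 8 to 31 members below 0 for 1 over 0 µM (median -1.64 to 0.70). It gave 12 to 17 for 5 over 1 µM (median -0.25 to 0.51). For 5 µM over day 4 it gave 13 to 21 (median -1.10 to 0.29), and for 1 µM over day 4 20 to 24 (median -0.68 to -0.22). Some of these fits repeated the main values. The ranges do not cover an RNA that a comparison needs. Such RNAs were 1 µM replicate 2 for 1 over 0 µM, 1 µM replicate 1 for 5 over 1 µM, and the day 4 sample for both day 4 comparisons. With named genes at 1 probe each, 7 of 22 were at least 2-fold lower on the 1 µM over day 4 array, 14 of 22 on 1 µM replicate 2 over control 2, and 5 of 22 were below 0 over control 1. Calls by limma were 0 under each alternative run, while probes at an unadjusted p under 0.05 numbered 658 to 2996. Array weights could not differ at 1 residual degree of freedom. Low signal could not be examined without intensities.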
